A study of Homo sapiens with 6 samples.

Results

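The genes described here are those of the NRF2 pathway and of the glutathione and thioredoxin defenses against oxidants. They were chosen as the rows of a gene count table whose symbol is 1 of 38 listed genes. Of these 38 members, 37 had a row among the 34811 genes counted, and 35 of the 37 passed a filter on low counts that kept 17309 genes. SRXN1, sulfiredoxin, was not analysed here. GPX1 and GPX2 had too few reads to be tested. RNA-seq compared OVCAR-3 ovarian carcinoma cells stably carrying a scrambled shRNA on the pRS HuSH-29 plasmid (OV3/SCR, wild-type COX-1) with OVCAR-3 cells carrying an shRNA against COX-1 on the same backbone (OV3/COX1KD), with 3 libraries from separate passages in each condition. Both lines came through puromycin selection and were grown in RPMI-1640 with serum. Each condition was represented by 1 stable line derived from a clone, so the effect of the knockdown and a difference between clones cannot be told apart. Each standard deviation (SD) given here is the spread between passages. Standard errors (SE) and intervals come from the statistical fit to the same passages. None of these errors covers a difference between clones.

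NRF2, encoded by NFE2L2, is a transcription factor held at a low level in resting cells because KEAP1 delivers it to the CUL3 ubiquitin ligase for degradation. Oxidants and electrophiles modify KEAP1, NRF2 then accumulates, pairs with a small MAF protein and binds the antioxidant response element of genes for glutathione synthesis, thioredoxin, NADPH supply, quinone reduction and iron storage. This control acts largely on the protein, which RNA counts do not measure. In a culture, fewer expressing cells and less RNA per cell cannot be told apart.

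The antioxidant response element core was looked for in the promoters of the members, because it is the sequence through which NRF2 acts. RefSeq windows of GRCh38.p14 ran from 250 bases before to 50 bases after each annotated start. They were found for 30 of the 38 members, which had 43 windows in all. HMOX1, SLC7A11, GSR, GSS, PRDX1, PRDX6, SOD1 and FTH1 had no window and were not searched. The core TGACNNNGC or its reverse complement GCNNNGTCA occurred in the windows of 9 members, PGD, GCLM, GSTA4, ME1, GSTP1, MGST1, TXNRD1, GPX2 and KEAP1. These were 10 of the 43 windows (23.3%), beside 13.3% of all 35116 windows of that length and 14.1% of the 14972 windows of genes tested. Of the 13 matches, 2 also held the AP-1 site TGACTCA, and they are shown first, within the 250 bases before the start, because one gene, ME1, was lower in OV3/COX1KD cells and the other, GSTP1, was higher. ME1 lies at chr6:83431052-83431301 on the minus strand and GSTP1 at chr11:67583562-67583811 on the plus strand, both written 5′ to 3′ along the gene with the match in capitals.
ME1: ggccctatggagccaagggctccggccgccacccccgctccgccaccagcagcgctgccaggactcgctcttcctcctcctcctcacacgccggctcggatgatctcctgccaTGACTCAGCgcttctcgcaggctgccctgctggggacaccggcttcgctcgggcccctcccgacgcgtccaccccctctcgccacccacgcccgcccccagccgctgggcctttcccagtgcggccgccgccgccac
GSTP1: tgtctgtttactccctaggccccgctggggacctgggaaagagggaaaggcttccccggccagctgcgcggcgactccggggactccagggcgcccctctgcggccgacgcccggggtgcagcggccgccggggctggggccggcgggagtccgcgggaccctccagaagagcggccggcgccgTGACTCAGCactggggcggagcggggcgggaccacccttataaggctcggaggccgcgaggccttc

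Of the other matches, 1 per gene (and both of KEAP1, the brake on NRF2) is shown for genes other than ME1 and MGST1, as the 9-base core in capitals with 10 bases on each side. GCLM and KEAP1 each held a match spelled GCTTAGTCA, which begins 34 bases before the start in GCLM and 31 bases before it in KEAP1. The matches of PGD, GCLM, GPX2 and the second one of KEAP1 read on the strand opposite to the gene. The stretches lie at chr1:10398853-10398881 for PGD, chr1:93909446-93909474 for GCLM, chr6:52995275-52995303 for GSTA4, chr12:104215670-104215698 for TXNRD1, chr14:64942849-64942877 for GPX2, and chr19:10502807-10502835 and chr19:10502784-10502812 for KEAP1.
PGD: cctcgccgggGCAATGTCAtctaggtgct
GCLM: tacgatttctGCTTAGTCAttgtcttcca
GSTA4: ccgggaccgcTGACCTGGCgctttgtgcg
TXNRD1: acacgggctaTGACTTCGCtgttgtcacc
GPX2: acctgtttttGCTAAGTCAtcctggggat
KEAP1, first match: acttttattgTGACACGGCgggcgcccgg
KEAP1, second match: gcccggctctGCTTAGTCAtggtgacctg

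A match occurred in members of every call. It was present in 4 of the 13 members with a window that were higher in OV3/COX1KD cells, in 1 of the 4 that were lower and in 3 of the 10 that did not pass the test. Of the 6 members that differed by a log2 fold change beyond 0.5, GSTA4 held a match and PRDX2, PRDX5, FTL, GSTM3 and OSGIN1 held none, nor did the windows of NQO1 and TALDO1. Elements farther from the start were not searched, and the windows are a description of letters, not of binding.

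The 6 libraries held between 25291505 and 27391538 counts, so that 3 counts, taken as the floor of detection, corresponded to 0.113 to 0.12 counts per 1000000 counts of a library (CPM). All CPM given are scaled by trimmed mean of M values (TMM). All 10 ovarian epithelial marker genes were detected, with 2469 counts or more in every library. They also differed between the conditions, 8 higher and 2 lower in OV3/COX1KD cells, with a summed level of 5796 ± 34.3 CPM in OV3/SCR and 7586 ± 101 CPM in OV3/COX1KD cells, a ratio of 1.31, and their part in the differences of the members was not tested. The 8 markers of other cell types with a row summed to 12.8 ± 0.316 CPM (SD, n = 3) in OV3/SCR and 8.65 ± 0.508 CPM in OV3/COX1KD cells. Of these 8, 2 had 3 counts or fewer in every library. Most of the sum was COL1A1, at 10.1 ± 0.232 CPM in OV3/SCR and 5.93 ± 0.517 CPM in OV3/COX1KD cells (log2 fold change -0.77, FDR 5.26e-07). PTGS1, the gene of COX-1, counted 713, 658 and 641 reads in OV3/SCR and 456, 486 and 501 reads in OV3/COX1KD cells, without overlap. It was 1.36-fold lower (log2 fold change -0.45, SE 0.057, FDR 1.34e-06).

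Of the 35 tested members, 20 differed between OV3/SCR and OV3/COX1KD cells at a false discovery rate (FDR) under 0.01 in edgeR's quasi-likelihood test. Of these, 15 were higher in OV3/COX1KD cells, 5 were lower and 15 did not pass. Over all 17309 genes tested, 47.9% passed, 25.8% as higher and 22.1% as lower, so the share of members called (57.1%) was read against a wide background. It was near the 58.4% called among the 12667 tested genes at or above the level of the lowest tested member. Of the 28 members averaging no less than 5 in log2 CPM, 57.1% were called, beside 67.1% of all tested genes at that level. The median log2 fold change of the members was 0.07, beside -0.01 for all genes and 0.03 for those 12667 genes. Their median size of change regardless of sign was 0.20, beside 0.28 and 0.23. For the 28 members averaging no less than 5, these medians were 0.08 and 0.18, beside 0.06 and 0.20 for tested genes at that level. Beyond a log2 fold change of 0.5, 5 members were higher (PRDX2, PRDX5, GSTM3, GSTA4 and FTL; 9.87% of all tested genes) and 1 was lower (OSGIN1; 10.0% of all tested genes). The libraries of the conditions did not overlap for 25 of the 35 members, 71.4%, beside 63.2% of all tested genes and 71.0% of those at or above the level of the lowest tested member. Summed over the 37 members with a row, the level was 5280 ± 45.0 CPM in OV3/SCR and 5681 ± 44.8 CPM in OV3/COX1KD cells, a ratio of 1.08.

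**Figure D1:**
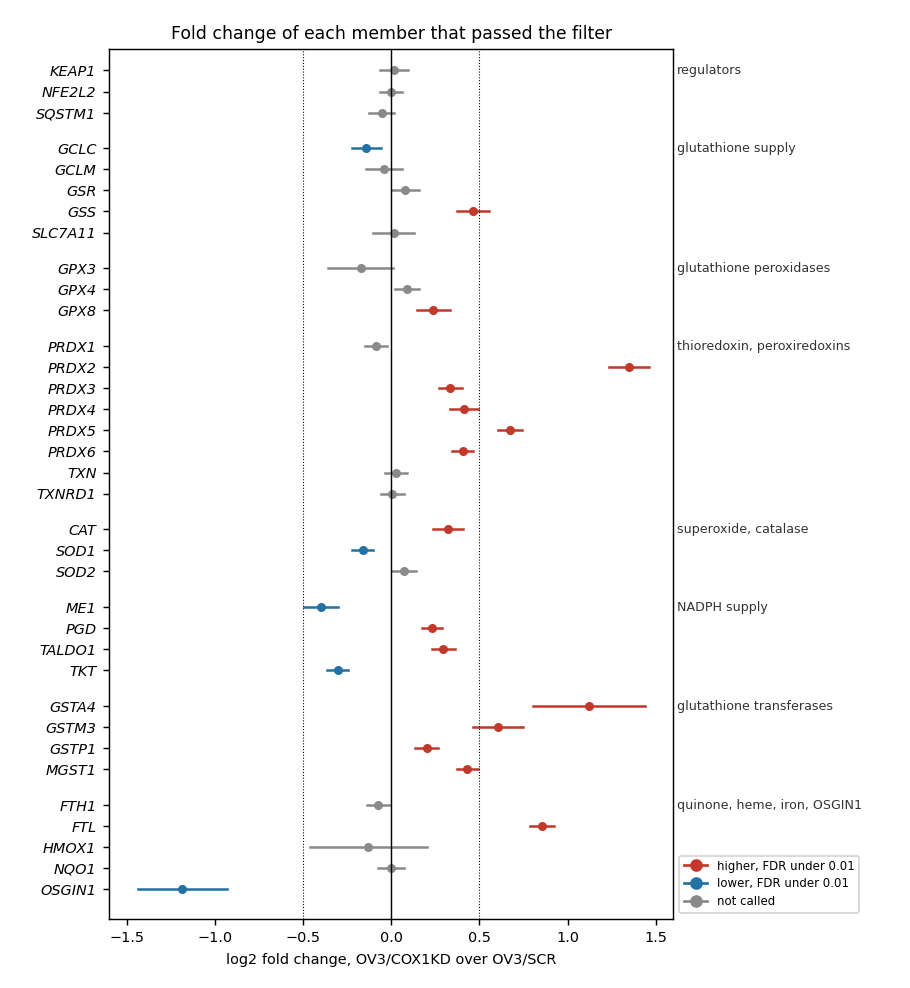
Log2 fold change (x axis, OV3/COX1KD over OV3/SCR) of the 35 members that passed the filter, grouped by role, with bars for the 95% interval of the fit and dotted lines at a log2 fold change of 0.5 in either direction. The intervals of the 3 regulators include 0, 5 of the 6 peroxiredoxins and all 4 glutathione transferases lie to the right, and OSGIN1 is the only member to the left of the dotted lines.

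The 3 regulators among the members, NFE2L2, KEAP1 and SQSTM1, did not pass the test. Of 15 other partners and relatives of NRF2, given further on, 10 passed (66.7%). This share lay beside 47.9% of all tested genes and 58.4% of those at or above the level of the lowest tested member. It lay beside 67.1% of those averaging no less than 5 in log2 CPM. NFE2L2 (GRCh37 chr2:178083395-178257484, minus strand) stood at 181, 183 and 180 CPM in OV3/SCR and at 182, 178 and 184 CPM in OV3/COX1KD libraries, which overlapped. Its log2 fold change was -0.0002, with a 95% interval from -0.06 to 0.06. KEAP1 (chr19:10596801-10614234, minus strand), the adaptor that marks NRF2 for degradation, stood at 65.1, 67.6 and 65.6 CPM in OV3/SCR and at 68.8, 65.4 and 66.2 CPM in OV3/COX1KD cells. These values overlapped as well, and the interval of the log2 fold change ran from -0.06 to 0.10. SQSTM1 (chr5:179233398-179265078, plus strand), which encodes p62, a cargo receptor of autophagy that competes for KEAP1, stood at 125, 122 and 128 CPM in OV3/SCR and at 123, 117 and 121 CPM in OV3/COX1KD cells. It had an interval from -0.13 to 0.01 (FDR 0.164), and was called lower only when libraries were scaled by their total counts (log2 fold change -0.13, FDR 0.00183). For all 3 regulators, the intervals thus kept the change within a log2 of 0.13 in either direction. In the annotation of GENCODE 44, 23.4% of the NFE2L2 exon bases overlapped HNRNPA3 and 21% of those of SQSTM1 overlapped MRNIP on the opposite strand, and the library kit does not mark strand. The part of shared reads in these values was not tested.

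Several genes often used to read NRF2 activity did not pass the test. NQO1, a quinone reductase, stood at 129 ± 3.97 CPM in OV3/SCR and 129 ± 4.45 CPM in OV3/COX1KD cells (95% interval of the log2 fold change -0.07 to 0.07). TXNRD1, cytosolic thioredoxin reductase, stood at 440.0 ± 5.80 and 442 ± 16.6 CPM (interval -0.06 to 0.07). GCLM, the modifier subunit of glutamate-cysteine ligase, stood at 51.9 ± 0.453 and 50.3 ± 3.78 CPM (interval -0.14 to 0.06). SLC7A11, the cystine importer, stood at 25.9 ± 0.579 and 26.1 ± 1.64 CPM (interval -0.10 to 0.13). None of these 4 genes passed the test. HMOX1, the inducible heme oxygenase, was scarce, with 53 to 65 counts in every library and a wide interval from -0.46 to 0.20 (FDR 0.498).

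OSGIN1 (chr16:83964916-83999937, plus strand), an oxidative stress-induced growth inhibitor, was the member with the largest fall. It stood at 6.30, 6.41 and 5.76 CPM in OV3/SCR and at 2.82, 2.75 and 2.55 CPM in OV3/COX1KD cells. The highest OV3/COX1KD library was less than 50% of the lowest OV3/SCR library. The gene was 2.27-fold lower (log2 fold change -1.19, SE 0.12, FDR 6.30e-08). Around it, within 2 Mb, the median log2 fold change of the 21 tested genes averaging no less than 1 in log2 CPM was 0.03.

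Among the 5 genes of glutathione supply, 1 was higher and 1 was lower. GSS, glutathione synthetase, which joins glycine in the last step of synthesis, was 1.38-fold higher, from 38.2 ± 1.03 to 52.7 ± 1.37 CPM (log2 fold change 0.46, SE 0.043, FDR 1.75e-08). GCLC, the catalytic subunit of the rate-limiting enzyme, was lower by a small step, from 72.7 ± 3.06 to 65.9 ± 0.541 CPM (log2 fold change -0.14, FDR 0.00416). This call was fragile. Its FDR was 0.0392 without OV3/SCR replicate 1, 0.0286 without OV3/SCR replicate 3, 0.0128 without OV3/COX1KD replicate 1, 0.018 without OV3/COX1KD replicate 3, 0.0119 in DESeq2 and 0.0223 without the filter on low counts. GSR, which regenerates reduced glutathione from its oxidized form with NADPH, stood at 68.4 ± 1.32 and 72.3 ± 0.606 CPM (log2 fold change 0.08, FDR 0.0625). Across the group the summed level was 257 ± 3.65 CPM in OV3/SCR and 267 ± 3.73 CPM in OV3/COX1KD cells.

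The glutathione peroxidases showed 1 call among the 3 members tested. GPX8, a peroxidase of the endoplasmic reticulum, was higher, from 38.8 ± 0.661 to 45.7 ± 1.81 CPM (log2 fold change 0.24, SE 0.045, FDR 1.35e-04). GPX4, which reduces lipid hydroperoxides in membranes, stood at 172 ± 4.82 and 183 ± 4.17 CPM (log2 fold change 0.09, FDR 0.0218), and passed the test without OV3/COX1KD replicate 2 (FDR 0.00147) and without the filter on low counts (FDR 0.00672). GPX3, a secreted form, stood at 11.2 ± 1.17 and 9.93 ± 0.757 CPM (FDR 0.0998). GPX1, the cytosolic form, had 4, 4 and 1 counts in OV3/SCR and 5, 3 and 6 counts in OV3/COX1KD cells, close to the floor. In GENCODE 44, 39.9% of the GPX1 exon bases are shared on the same strand with another gene model, ENSG00000290318, which had no row in the table, and the part of this overlap in the low count was not tested. GPX2 had 8, 8 and 10 counts in OV3/SCR and 5, 1 and 4 counts in OV3/COX1KD cells.

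The peroxiredoxins, thiol enzymes that reduce hydrogen peroxide and are in most cases recycled by thioredoxin, had 5 calls, all in the same direction. In OV3/COX1KD cells 5 of the 6 peroxiredoxins were higher and PRDX1 did not pass. Of all tested genes, 25.8% were higher. So were 4161 of the 12667 at or above the level of the lowest tested member, and 2490 of the 6186 averaging no less than 5 in log2 CPM. PRDX2 (chr19:12907634-12912614, minus strand), a cytosolic form, stood at 16.6, 16.5 and 15.8 CPM in OV3/SCR and at 42.6, 39.8 and 42.3 CPM in OV3/COX1KD cells. Each OV3/COX1KD library was more than double each OV3/SCR library. The 2.55-fold difference was the largest of all the members tested (log2 fold change 1.35, SE 0.053, FDR 4.42e-14) and the only one above 2.5-fold. PRDX5 (chr11:64085593-64089283, plus strand), found in mitochondria, peroxisomes and cytosol, stood at 101, 96.7 and 102 CPM in OV3/SCR and at 160.0, 160.2 and 158 CPM in OV3/COX1KD cells. The conditions lay far apart compared with their spread, and the gene was 1.59-fold higher (log2 fold change 0.67, SE 0.033, FDR 1.01e-12).

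The other peroxiredoxins rose by smaller steps. PRDX3, the mitochondrial form, rose from 144 ± 3.71 to 182 ± 2.55 CPM (log2 fold change 0.33), PRDX4, the form of the endoplasmic reticulum, from 55.5 ± 1.61 to 73.8 ± 0.679 CPM (0.41), and PRDX6, the form with a single active cysteine, from 256 ± 3.19 to 339 ± 6.48 CPM (0.40). Each was higher in all 3 OV3/COX1KD libraries, with FDR values of 2.12e-08, 1.53e-08 and 3.62e-10. PRDX1, the most abundant, stood at 455 ± 5.95 and 429 ± 11.0 CPM (log2 fold change -0.09, FDR 0.0155). It passed as lower under scaling by total counts (FDR 6.44e-05) and with 10 counts required in every library (FDR 0.00504). Of the summed peroxiredoxin level per kilobase of exon, PRDX1 made up 46.8% ± 0.205 in OV3/SCR and 36.4% ± 0.705 in OV3/COX1KD cells, PRDX5 20.1% ± 0.305 and 26.4% ± 0.373, and PRDX2 1.39% ± 0.0479 and 2.91% ± 0.0831. The read sum of all 6 was 1027 ± 11.8 CPM in OV3/SCR and 1224 ± 12.2 CPM in OV3/COX1KD cells.

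**Figure D2:**
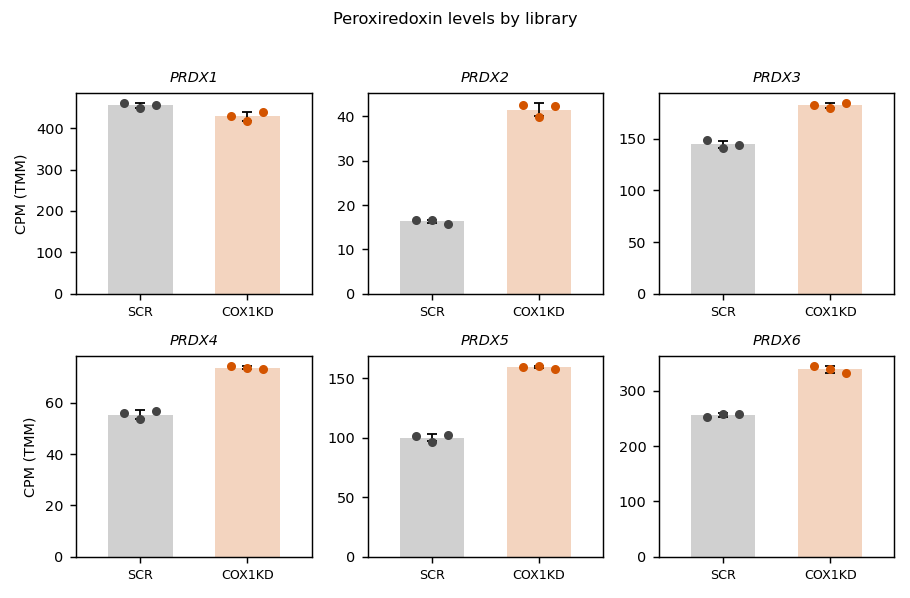
Level of each peroxiredoxin in CPM after TMM scaling (y axis, from 0) in the 3 OV3/SCR and the 3 OV3/COX1KD libraries, with a point for each library, bars for the mean and error bars for the SD. PRDX2 rises from about 16.3 to 41.5, PRDX3 to PRDX6 rise by less, and PRDX1 is slightly lower without passing the test.

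Cytosolic thioredoxin and its reductase, the 2 members of the recycling system, did not pass the test. TXN, thioredoxin, stood at 244 ± 6.05 CPM in OV3/SCR and 248 ± 2.62 CPM in OV3/COX1KD cells, with an interval of the log2 fold change from -0.04 to 0.09. TXNRD1, given above, lay as close to 0. Outside the members, mitochondrial TXN2 was higher (log2 fold change 0.52, FDR 3.87e-09) and its reductase TXNRD2 was lower (-0.31, FDR 5.85e-05), genes chosen here after their values were seen. Neighboring genes did not share the rise of PRDX2 or PRDX5 on the median. The median log2 fold change was 0.01 for the 78 tested genes averaging no less than 1 in log2 CPM within 2 Mb of PRDX2. For the 114 around PRDX5 it was -0.07. In GENCODE 44, 12.1% of the PRDX2 exon bases overlapped an opposite-strand lncRNA with no row in the table, and 29.8% of those of PRDX1 overlapped MMACHC on the opposite strand.

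Superoxide dismutases and catalase went different ways. SOD1, the cytosolic copper and zinc enzyme that turns superoxide into hydrogen peroxide, was lower by a small step, from 260.4 ± 1.66 to 233 ± 2.62 CPM (log2 fold change -0.16, SE 0.028, FDR 5.93e-05). SOD2, the mitochondrial manganese enzyme, stood at 114 ± 0.981 and 120 ± 1.75 CPM (log2 fold change 0.07, FDR 0.0597). CAT, catalase, which breaks down hydrogen peroxide in peroxisomes, was 1.25-fold higher, from 63.2 ± 2.59 to 79.1 ± 2.83 CPM (log2 fold change 0.32, SE 0.041, FDR 1.22e-06).

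All 4 members that supply NADPH or feed the pentose phosphate pathway passed the test, 2 in each direction. PGD, which makes NADPH in the oxidative branch, rose from 337 ± 3.47 to 396 ± 2.95 CPM (log2 fold change 0.23, FDR 5.52e-07). TALDO1, transaldolase of the non-oxidative branch, rose from 179 ± 4.76 to 219 ± 3.02 CPM (0.29, FDR 9.79e-08). TKT, transketolase of the same branch, fell from 764 ± 2.75 to 618 ± 13.7 CPM (-0.30, FDR 1.28e-08). ME1, cytosolic malic enzyme, fell from 55.1 ± 1.48 to 41.8 ± 2.07 CPM (-0.40, FDR 2.70e-07). None of the 4 overlapped between conditions. The same held for 63.2% of all tested genes and 71.0% of those at or above the level of the lowest tested member.

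**Figure D3:**
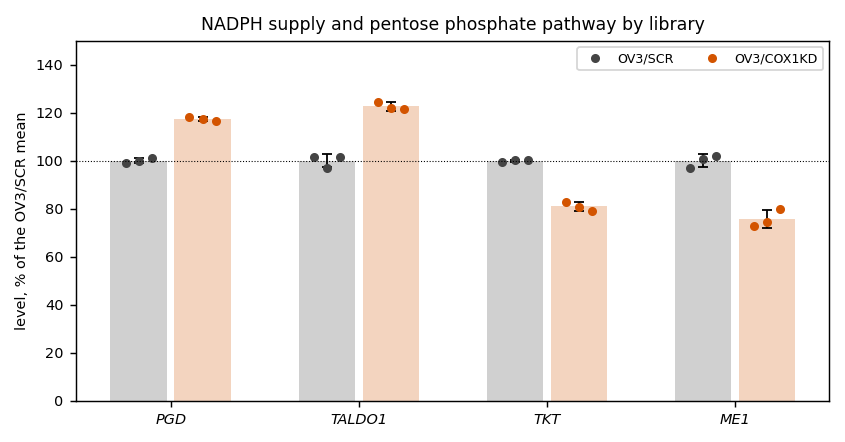
Level of the 4 members PGD, TALDO1, TKT and ME1 in each library as a percentage of the OV3/SCR mean of that gene (y axis, from 0), with a point for each library, bars for the mean and error bars for the SD, n = 3. TKT and ME1 lie below 100% and PGD and TALDO1 above it in all 3 OV3/COX1KD libraries.

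All 4 glutathione transferases, which attach glutathione to electrophiles, were higher in OV3/COX1KD cells. The same call was made for 25.8% of all tested genes. It was made for 4161 of the 12667 at or above the level of the lowest tested member. GSTA4 (chr6:52842746-52860102, minus strand), an alpha-class enzyme that acts on the lipid peroxidation product 4-hydroxynonenal, stood at 1.84, 2.03 and 2.51 CPM in OV3/SCR and at 5.25, 4.15 and 4.50 CPM in OV3/COX1KD cells. The conditions did not overlap, although the spread was wide at this low level. It was 2.18-fold higher (log2 fold change 1.12, SE 0.15, FDR 2.88e-06). GSTM3 (chr1:110276554-110283660, minus strand), a mu-class enzyme, stood at 19.4, 16.2 and 20.7 CPM in OV3/SCR and at 28.6, 28.5 and 28.4 CPM in OV3/COX1KD cells. The spread was larger in OV3/SCR, whose highest library was still below every OV3/COX1KD library. The log2 fold change was 0.60 (SE 0.069, FDR 2.97e-07). Tested against a change of 0.5 itself with edgeR's glmTreat, GSTM3 no longer passed (FDR 0.147), while the other 4 members higher beyond 0.5 did.

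MGST1, a membrane-bound transferase, and GSTP1, the pi-class enzyme, carried most of the reads of the group. MGST1 rose from 227 ± 3.49 to 306 ± 3.80 CPM (log2 fold change 0.43, FDR 1.29e-10) and GSTP1 from 165 ± 4.01 to 190.0 ± 1.07 CPM (0.20, FDR 1.34e-05). The summed level of the 4 transferases was 413 ± 9.27 CPM in OV3/SCR and 529 ± 3.99 CPM in OV3/COX1KD cells, a ratio of 1.28. Within 2 Mb, the median log2 fold change was -0.001 for the 37 tested genes around GSTM3 and 0.10 for the 17 around GSTA4. Only tested genes averaging no less than 1 in log2 CPM were counted as neighbors.

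The ferritin chains, which assemble into the shell that stores iron, differed from each other. FTL (chr19:49468566-49470136, plus strand), the light chain, stood at 165, 176 and 177 CPM in OV3/SCR and at 306, 321 and 309 CPM in OV3/COX1KD cells. The conditions were separated by more than 100 CPM, and FTL was 1.81-fold higher (log2 fold change 0.85, SE 0.033, FDR 3.72e-14). FTH1, the heavy chain, which carries the ferroxidase activity, stood at 213, 229 and 220.3 CPM in OV3/SCR and at 213, 209.7 and 207 CPM in OV3/COX1KD cells. These did not overlap by a narrow margin and did not pass the test (log2 fold change -0.07, FDR 0.0571), except as lower under scaling by total counts (FDR 2.93e-04). The ratio of FTL to FTH1 reads was 0.776, 0.768 and 0.803 in OV3/SCR and 1.44, 1.53 and 1.49 in OV3/COX1KD libraries. For the 87 tested genes within 2 Mb of FTL that averaged no less than 1 in log2 CPM, the median log2 fold change was -0.04. Opposite-strand exons of BEST1 cover 63.2% of the FTH1 exon bases in GENCODE 44. Retroposed copies with rows of their own summed to 114 to 146 counts for FTH1 (17 copies) and to 11 to 29 counts for FTL (7 copies), beside 4397 counts or more for each parent gene, and reads moved between a parent and its copies were not tested.

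**Figure D4:**
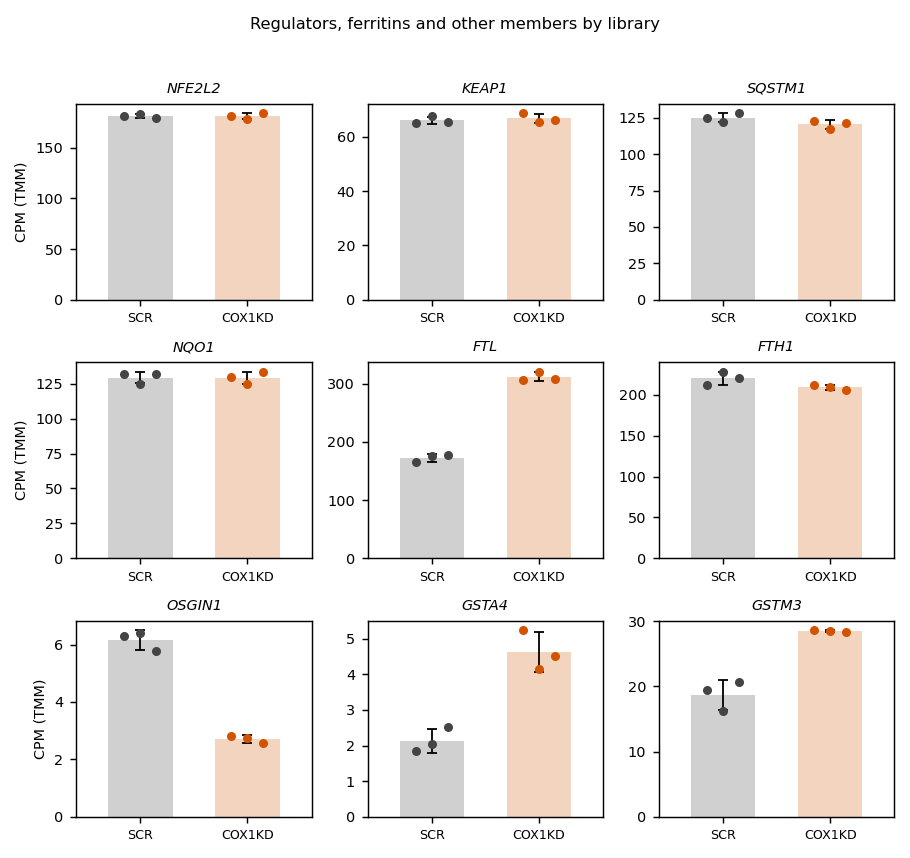
Level in CPM after TMM scaling (y axis, from 0) of the 3 regulators, NQO1, the ferritin chains, OSGIN1, GSTA4 and GSTM3 in the 3 OV3/SCR and the 3 OV3/COX1KD libraries, with a point for each library, bars for the mean and error bars for the SD. The conditions overlap for NFE2L2, KEAP1, SQSTM1 and NQO1, while FTL, GSTA4 and GSTM3 are higher and OSGIN1 is lower in every OV3/COX1KD library.

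Per kilobase of merged exon length, the highest levels in OV3/SCR cells were those of PRDX1 (271 ± 3.54 CPM per kilobase), TXN (241 ± 5.99) and FTL (198 ± 7.52). In OV3/COX1KD cells FTL came first (358 ± 9.01), before PRDX1 (255 ± 6.53) and TXN (245 ± 2.60). Among the tested members, the lowest levels in OV3/SCR cells were those of GSTA4 (1.01 ± 0.166), HMOX1 (1.04 ± 0.0571) and OSGIN1 (1.11 ± 0.0622), which differed by no more than about their SD. In OV3/COX1KD cells GSTA4 stood at 2.21 ± 0.266, HMOX1 at 0.947 ± 0.0543 and OSGIN1 at 0.487 ± 0.0252 CPM per kilobase. These lengths join the exons of all isoforms and so understate genes with many isoforms, and SOD2 had no length under its identifier.

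Genes of the same pathways outside the members were described from lists drawn up with earlier results of these data known. Of 137 listed genes 106 were tested, 45 were higher and 24 lower in OV3/COX1KD cells (65.1% called, median log2 fold change 0.08). This share lay beside 47.9% of all tested genes, 58.4% of those at or above the level of the lowest tested member and 67.1% of those averaging no less than 5 in log2 CPM. Among 15 partners and relatives of NRF2, 4 were higher and 6 lower. Chosen after their values were seen, CUL3, which builds the ligase that takes NRF2 from KEAP1, was higher (log2 fold change 0.24, FDR 3.87e-06), and its RING subunit RBX1 was lower (-0.43, FDR 1.67e-06). BACH2, a repressor related to BACH1, was 3.12-fold lower (log2 fold change -1.64, FDR 1.30e-09), MAFF, a small MAF protein, was 1.61-fold lower (-0.69, FDR 5.08e-05), and NFE2, a factor of the same family as NRF2, was 1.76-fold higher (0.81, FDR 7.02e-05). Their median log2 fold change was -0.11.

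Among 29 other tested genes linked to NRF2, 10 were higher and 8 lower, with a median of -0.06. Among the falls were ABCC3, an exporter of conjugates (log2 fold change -1.67, FDR 1.80e-08), and AKR1B10, an aldo-keto reductase (-0.84, FDR 7.28e-09). Among the rises were GSTA1, an alpha-class transferase (1.07, FDR 2.89e-05), ALDH3A2, a fatty aldehyde dehydrogenase (0.75, FDR 2.19e-13), and PTGR1, prostaglandin reductase 1 (0.73, FDR 3.11e-12). GSTA1 has near-identical neighbors in its gene family, and its 30 to 71 counts per library are uncertain for that reason. The other 11 of the 29 did not pass the test. The genes named here were picked from the largest rises and falls of the list, so both signs among them follow from that choice.

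Of 27 tested genes of glutathione turnover and use, 13 were higher and 5 lower (median 0.18). GGT6, of the gamma-glutamyltransferase family, was 4.25-fold higher (log2 fold change 2.09, FDR 6.40e-11), and GGT1, which cleaves extracellular glutathione, was 1.58-fold higher (0.66, FDR 4.17e-04). CHAC1, which degrades glutathione inside the cell, was lower (-0.76, FDR 1.17e-04), as were GLRX2, a mitochondrial glutaredoxin (-0.54, FDR 5.18e-04), and SLC3A2, the heavy chain that partners SLC7A11 in the cystine importer (-0.51, FDR 7.21e-12).

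Of 15 tested genes of the thioredoxin system and of repair, 8 were higher and 2 lower (median 0.32). TXNIP, which binds and inhibits thioredoxin, counted 1626, 1528 and 1671 reads in OV3/SCR and 425, 413 and 460 reads in OV3/COX1KD cells. It was 3.64-fold lower (log2 fold change -1.86, SE 0.052, FDR 2.59e-16), beside the level of TXN itself, which did not pass the test. MSRB2, a mitochondrial methionine sulfoxide reductase (0.89, FDR 1.08e-08), AIFM2, a ubiquinone reductase that limits lipid peroxidation (0.73, FDR 7.41e-04), and TXNRD3, a thioredoxin reductase (0.65, FDR 1.15e-07), were higher.

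Of 14 tested genes of iron and heme handling, 8 were higher and 2 lower (median 0.21). SLC40A1, ferroportin, the iron exporter, counted 119, 142 and 119 reads in OV3/SCR and 265, 254 and 287 reads in OV3/COX1KD cells, 2.17-fold higher (log2 fold change 1.12, FDR 6.25e-09). CP, ceruloplasmin, the ferroxidase that works with ferroportin, was 1.88-fold higher (0.91, FDR 2.12e-14), and BLVRB, biliverdin reductase B, was 1.52-fold higher (0.61, FDR 3.65e-07). HFE, an iron-sensing surface protein, was lower (-0.59, FDR 0.00754), a call lost in DESeq2 (FDR 0.0255) and without OV3/SCR replicate 1 (0.0413) or replicate 2 (0.0276) or OV3/COX1KD replicate 1 (0.0388) or replicate 3 (0.0257).

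**Figure D5:**
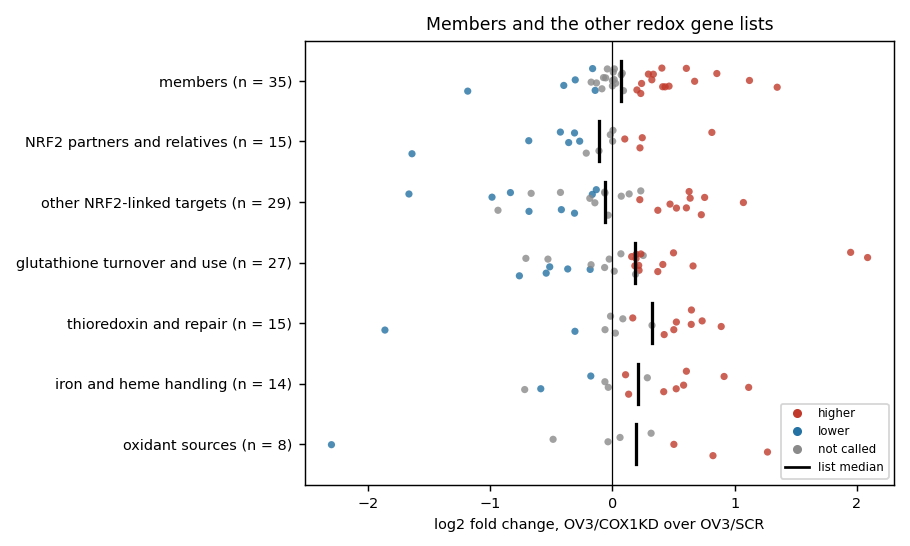
Log2 fold change (x axis, OV3/COX1KD over OV3/SCR) of the 35 tested members and of the tested genes of 6 other redox lists, with a point for each gene colored by its call and a black line at the median of each list. Every list has points on both sides of 0, and the medians lie between -0.11 for the NRF2 partners and 0.32 for the thioredoxin and repair genes.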

How the data were processed

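RNA-seq libraries of OV3/SCR and OV3/COX1KD cells (3 each, from separate passages of 1 line per condition) were made by the study with a TruSeq RNA kit and sequenced on a HiSeq2500. Reads were mapped by the authors to hg19 (TopHat2 2.0), and they deposited raw counts per gene from HTSeq, not normalized. The annotation and strand setting of the counting are not given in the sources used here. Groups and replicate numbers came from the labels.

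The main test was edgeR 4.0.16 in R 4.3.3. After TMM scaling, filterByExpr retained 17309 of 34811 genes, and conditions were compared with glmQLFit and glmQLFTest, condition being the only factor, with Benjamini-Hochberg adjustment over all kept genes. A gene was called at an FDR under 0.01, and changes beyond a log2 fold change of 0.5 were counted apart. The SE given with a log2 fold change is that change over the root of its F value. The biological coefficient of variation was 3.21%. Intervals are 95% intervals of the fit. Library totals were 25291505 to 27391538 counts. The floor was fixed at 3 counts, which covers counting error only. Only the edgeR fit was run on simulated counts, with a small share of genes changed. In the data 47.9% of genes were called, so scaling under so wide a change was not tested. The other steps were not run on simulated counts.

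Every member was described, with values per library for those called beyond 0.5 and for NFE2L2, KEAP1 and SQSTM1. Outside the members, PTGS1 and up to 3 of the largest rises and falls of each list beyond 0.5, and averaging no less than 1 in log2 CPM, were named. Some genes that this rule takes in are not reported here. Members and lists were chosen with earlier results of these data known. GRCh37 coordinates, overlaps and exon lengths came from GENCODE 44 lifted to that build (33556 genes had an entry), and promoters from RefSeq on GRCh38.p14. Neighbors within 2 Mb were tested genes with such an entry that averaged no less than 1 in log2 CPM. Alternatives were DESeq2 1.42.0, scaling by RLE or by total counts, no filter or a minimum of 10 counts per library, a block for the replicate number, each library left out, glmTreat against a change of 0.5, and the motif TGACTCA.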

Additional observations from a re-analysis of the deposited data

How the results depend on the processing

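Between 15 and 16 members were called higher and between 4 and 6 lower in all settings but total count scaling, which called 8 lower, adding PRDX1, FTH1 and SQSTM1. This scaling moved the median log2 fold change of all genes by -0.08, and the higher share of all called genes from 53.9% (4473 higher, 3820 lower) to 41.0% (3466 higher, 4978 lower). Beyond 0.5, 5 members were higher and 1 lower in every setting, except 4 higher with glmTreat. Members near 0, none of them called in any setting, changed sign. Under total count scaling KEAP1 was at -0.0624, TXNRD1 at -0.0719, TXN at -0.0521, SLC7A11 at -0.0641 and SOD2 at -0.006. Without the filter NFE2L2 was at 0.0223 and NQO1 at 0.0222. With at least 10 counts in every library KEAP1 was at -0.0016, TXNRD1 at -0.011 and SLC7A11 at -0.0032. Over all shared genes, the median shift from the main fit was 0.022 without the filter and -0.017 with at least 10 counts. The cause of the sign changes was not tested. Leaving out single libraries gave ranges of -0.0098 to 0.0193 for NFE2L2, -0.0046 to 0.037 for KEAP1, -0.1041 to 0.0005 for GCLM, -0.0243 to 0.0328 for NQO1, -0.0121 to 0.0435 for TXNRD1 and -0.0206 to 0.0697 for SLC7A11.

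TGACTCA in place of TGACNNNGC was found in the windows of 3 members in place of 9, since it spells a different site. Same-numbered libraries of the conditions deviated from their group means with correlations of 0.0015, 0.05 and 0.02 over 13012 genes, so the numbers were not taken to pair them. With the replicate block 15 members were called higher and 5 lower, and 4437 and 3796 of all genes, and no member's call changed. The tests describe passages of 1 line per condition, and at 53 to 65 counts per library the interval of HMOX1 reached down to a log2 fold change of -0.46.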

Other observations

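Enzymes that make oxidants are not among the members. Of 19 such genes, 8 had enough reads to be tested. In OV3/COX1KD cells 3 of the 8 were higher, 1 was lower and 4 did not pass the test (median log2 fold change 0.19). Among all tested genes 47.9% passed, so the number of calls in this list was near the background. MAOA, monoamine oxidase A, which makes hydrogen peroxide at the mitochondrial outer membrane, counted 291, 271 and 253 reads in OV3/SCR and 639, 627 and 656 reads in OV3/COX1KD cells, 2.41-fold higher (log2 fold change 1.27, SE 0.064, FDR 1.67e-12). NOXA1, an activator subunit of NADPH oxidase 1, was 1.77-fold higher (0.82, FDR 3.51e-09), and CYBA, the p22phox subunit shared by several NADPH oxidases, was 1.42-fold higher (0.50, FDR 1.18e-08). XDH, xanthine dehydrogenase, which can also act as an oxidase, counted 124, 135 and 125 reads in OV3/SCR and 31, 15 and 30 reads in OV3/COX1KD cells, 4.93-fold lower (-2.30, SE 0.19, FDR 2.25e-09).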
